A study of Homo sapiens with 24 samples.

Results

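The 28 genes described here encode the enzymes that make cholesterol and fatty acids, together with the regulators that set their transcription. They were chosen by name as regulators and targets of the sterol regulatory element-binding proteins (SREBPs), a rule that uses no measured value, although earlier results of these data were known when it was set. All 28 were found among the 36481 genes of the deposited table. Messenger RNA was sequenced from Hs578T and SKBR7, established triple-negative breast cancer (TNBC) cell lines. In each of these 2 lines, 3 libraries came from co-treatment with lapatinib (3.16 µM) and PHA-767491 (1 µM), 3 from lapatinib alone, 3 from PHA-767491 alone and 3 from the vehicle DMSO (0.1%), all after 6 h, which makes 24 libraries in 8 groups. Lapatinib inhibits the receptor tyrosine kinases EGFR and HER2, and PHA-767491 is a dual inhibitor of the kinases cdc7 and CDK9. The comparisons ask what co-treatment does to transcripts beyond either monotherapy. The replicates are described only as triplicates, so p-values measure the spread between these samples, which may be technical. In such bulk samples, fewer cells that carry a transcript and less of it per cell cannot be told apart.

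SREBPs are made as precursors in the membrane of the endoplasmic reticulum, where SCAP escorts them and the INSIG proteins hold them back while sterols are plentiful. When membrane sterols fall, SCAP carries the precursor to the Golgi, where proteases release its transcription factor domain. The SREBF2 product mainly drives cholesterol synthesis and SREBF1 products mainly fatty acid synthesis, and INSIG1 is itself a target, which closes a feedback loop. CDK9 is a kinase that lets RNA polymerase II pass into elongation.

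The promoters of 5 members whose values the results turn on are shown because SREBPs bind such sites together with the general factors NF-Y and Sp1. Each is the 250 bases before a RefSeq transcript start on GRCh38.p14, written 5′ to 3′ on the strand of the gene. Capitals mark TCACNCCAC (a sterol regulatory element, with N for any base), CCAAT (the NF-Y box), GGGCGG (the Sp1 box) and CACGTG (an E-box), each on either strand, and neighbouring matches of GGGCGG may overlap. HMGCS1 was added after its values had been seen.
SREBF2 (22:41832855-41833104, plus strand): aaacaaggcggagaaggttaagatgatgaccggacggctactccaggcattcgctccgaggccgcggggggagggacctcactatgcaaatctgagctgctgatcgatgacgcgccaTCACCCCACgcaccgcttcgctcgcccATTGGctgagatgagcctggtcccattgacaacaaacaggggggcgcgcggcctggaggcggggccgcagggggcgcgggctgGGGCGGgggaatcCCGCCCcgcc
INSIG1 (7:155297628-155297877, plus strand): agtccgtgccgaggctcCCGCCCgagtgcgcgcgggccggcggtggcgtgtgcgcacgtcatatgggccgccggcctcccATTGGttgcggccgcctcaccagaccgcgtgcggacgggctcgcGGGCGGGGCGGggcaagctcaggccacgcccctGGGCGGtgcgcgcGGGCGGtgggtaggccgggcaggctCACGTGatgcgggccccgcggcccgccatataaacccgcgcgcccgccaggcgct
HMGCS1 (5:43313413-43313662, minus strand): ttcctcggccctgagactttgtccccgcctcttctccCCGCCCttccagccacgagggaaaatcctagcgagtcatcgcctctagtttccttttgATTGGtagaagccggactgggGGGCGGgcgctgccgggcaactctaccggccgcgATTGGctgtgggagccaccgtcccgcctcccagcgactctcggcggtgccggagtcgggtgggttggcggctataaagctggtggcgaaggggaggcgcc
MSMO1 (4:165327419-165327668, plus strand): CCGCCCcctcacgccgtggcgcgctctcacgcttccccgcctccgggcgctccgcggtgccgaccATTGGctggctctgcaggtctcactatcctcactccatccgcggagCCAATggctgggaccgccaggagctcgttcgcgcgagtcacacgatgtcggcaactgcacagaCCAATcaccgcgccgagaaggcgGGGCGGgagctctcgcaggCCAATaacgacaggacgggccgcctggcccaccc
SCD (10:100346983-100347232, plus strand): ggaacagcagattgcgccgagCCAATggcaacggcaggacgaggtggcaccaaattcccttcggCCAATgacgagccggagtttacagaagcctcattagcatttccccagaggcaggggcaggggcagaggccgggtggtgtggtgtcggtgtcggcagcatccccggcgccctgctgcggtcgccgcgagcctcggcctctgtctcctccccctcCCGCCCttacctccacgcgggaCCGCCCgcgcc

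RefSeq promoter windows were matched for 24 of the 28 members, in 33 windows. A CCAAT match was held by 69.7% of these windows, against 32% of all 35116 promoter windows, and GGGCGG by 90.9% of them against 42.6% of all. CACGTG was found in the windows of INSIG1, SC5D and SCAP, and TCACNCCAC, which 0.883% of all windows hold, in 1 member window, that of SREBF2. A match is a description of the letters only, and windows of 1 gene share sequence.

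Levels are the deposited log2 values after scaling and quantile normalisation, so a difference of 1 is a 2-fold change. Numbers of reads are not used here. A library listed 9967 to 23320 genes, which is the only measure of depth. Libraries in doubt numbered 6. Hs578T DMSO I and II, Hs578T PHA-767491 I, SKBR7 lapatinib II and SKBR7 co-treatment I listed fewer genes than the others (9967 to 18090). Hs578T DMSO II and PHA-767491 III listed 361 and 470 of 489 genes that all SKBR7 libraries list, whereas the Hs578T libraries not in doubt listed 43 to 68 of them by the rule that chose these genes. Every comparison was therefore also fitted without these 6, with the others quantile normalised again on the 12200 genes that have a value in every library except Hs578T DMSO I (the reduced set). In the reduced set, Hs578T PHA-767491 and Hs578T DMSO each keep 1 library, whose spread is taken to equal that of the other groups. Hs578T co-treatment against lapatinib keeps all its libraries there, as none of them is in doubt. For that comparison the reduced set changes only the normalisation and the genes tested. The deposited scale also moved the median difference of all genes, by 0.18 and -0.08 for co-treatment against lapatinib in Hs578T and SKBR7 and by 0.90 and -0.46 against DMSO, while in the reduced set these medians lay between 0.04 and 0.06. ESR1 and PGR, which encode the hormone receptors, had medians of 0.25 or less in both lines. ERBB2 (HER2) had medians of 5.64 in Hs578T and 6.16 in SKBR7. Of the mesenchymal markers, VIM and FN1 were high in Hs578T (medians of 11.9 and 11.8), but VIM was also high in SKBR7 (median 9.24). ZEB1, SNAI2 and CDH2 had higher medians in Hs578T. Of the epithelial markers, KRT8 was high in SKBR7 (median 11.2), and KRT18 and CDH1 had higher medians there. EPCAM and KRT19 were low in both lines, with medians of -1.89 and -1.92 in SKBR7.

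In Hs578T cells, members of the cholesterol pathway moved in both directions in co-treatment against lapatinib. Of the 28 members, 10 rose and 3 fell (limma, adjusted p under 0.05, 6 libraries), where 18.3% of all genes tested were called higher and 11% lower. The number of members that fell is near the share of all genes, and the members' median difference was 0.22, near the 0.18 of all genes. Among the 7 genes of the mevalonate steps 4 rose and 1 fell, among the 11 of the squalene and sterol steps 3 rose and 1 fell, among the 5 regulators 2 rose, and among the 4 fatty acid genes 1 rose and 1 fell.

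The regulators come first. SREBF2 (22:41833079-41907308, plus strand) had 7.47, 7.30 and 7.34 in co-treated Hs578T libraries, against 6.76, 6.72 and 6.96 under lapatinib. SCAP (3:47413694-47477126), the escort of the precursors, had 6.49, 6.49 and 6.24 in co-treated libraries, against 5.96, 5.81 and 6.05 under lapatinib. For both genes the 3 co-treated libraries lay above the 3 lapatinib libraries, and both rose, SREBF2 by 0.56 ± 0.11 (SE, adjusted p = 3.12e-06) and SCAP by 0.47 ± 0.13 (adjusted p = 0.00126). SREBF1 (17:17810399-17837002) had 6.23, 6.07 and 5.78 in co-treated libraries, against 5.79, 5.67 and 5.85 under lapatinib, and these overlapped (difference 0.26 ± 0.13, adjusted p = 0.144).

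The INSIG genes did not follow SREBF2 and SCAP. INSIG1 (7:155297776-155310235) had 6.43, 6.41 and 6.39 in co-treated libraries, against 6.62, 6.42 and 6.51 under lapatinib, a difference of -0.11 ± 0.12 (adjusted p = 0.56). INSIG2 (2:118088452-118110997) had 2.90, 3.22 and 2.59 in co-treated libraries, against 3.56, 3.23 and 3.73 under lapatinib. The INSIG2 groups did not overlap, but the difference of -0.60 ± 0.30 did not pass (adjusted p = 0.125). It passed in the reduced set, which here holds the same 6 libraries normalised again (-0.75 ± 0.16, adjusted p = 0.00125).

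Of the enzymes of the mevalonate steps, ACAT2, PMVK, MVD and FDPS rose. ACAT2, which joins acetyl-CoA units in the opening step, had 6.44, 6.55 and 6.47 in co-treated Hs578T libraries, against 6.14, 5.49 and 5.92 under lapatinib. PMVK, the phosphomevalonate kinase, had 5.96, 6.10 and 5.90 in co-treated libraries, against 5.64, 5.09 and 5.53 under lapatinib. All co-treated libraries lay above the lapatinib ones for both, by 0.64 ± 0.13 for ACAT2 and 0.57 ± 0.14 for PMVK (adjusted p = 5.49e-06 and 3.52e-04). MVD, which makes the isoprene unit, had 4.81, 4.77 and 4.41 in co-treated libraries, against 4.05, 3.75 and 4.38 under lapatinib. FDPS, which builds farnesyl diphosphate, had 7.03, 7.15 and 7.06 in co-treated libraries, against 6.61, 6.32 and 6.61 under lapatinib. The gap was narrow for MVD (0.60 ± 0.20, adjusted p = 0.0123) and wide for FDPS (0.57 ± 0.11, adjusted p = 5.54e-06). Without co-treatment I, co-treatment II or lapatinib II, MVD no longer passed (adjusted p = 0.147, 0.101 and 0.0588).

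HMGCS1, which condenses acetyl-CoA with acetoacetyl-CoA between the steps of ACAT2 and PMVK, went the other way. It had 5.66, 5.69 and 5.64 in co-treated libraries, against 6.25, 6.03 and 6.30 under lapatinib. It fell by 0.53 ± 0.13 (adjusted p = 4.63e-04) with no overlap. HMGCS1, SQLE, STARD4 and EBP are given library by library although the rule for such genes did not name them, and they were chosen after their values had been seen. The other mevalonate genes, MVK (mevalonate kinase) and IDI1 (the isomerase of the isoprene unit), had differences of -0.42 ± 0.21 and -0.25 ± 0.14 that did not pass, whereas both passed as lower in the reduced set (-0.53 ± 0.13 and -0.30 ± 0.10, adjusted p = 0.00405 and 0.0177).

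Of the later steps, MSMO1, NSDHL and DHCR7 rose and SQLE fell. MSMO1 (4:165327623-165343160), the methylsterol monooxygenase that removes methyl groups from the sterol ring, had 6.54, 6.54 and 6.60 in co-treated libraries, against 5.58, 5.40 and 5.66 under lapatinib. This was a 2.02-fold difference (1.01 ± 0.13, adjusted p = 3.35e-13), with all 3 co-treated libraries above all 3 others. NSDHL, which works with MSMO1 in the same demethylation, had 5.88, 5.91 and 5.81 in co-treated libraries, against 5.40, 4.90 and 5.47 under lapatinib, and rose by 0.61 ± 0.14 (adjusted p = 1.89e-04). DHCR7, the reductase that ends one branch of cholesterol synthesis, rose by 0.52 ± 0.12 (adjusted p = 6.15e-05).

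SQLE, the squalene epoxidase that commits squalene to sterols, had 6.86, 6.87 and 6.79 in co-treated libraries, against 7.33, 7.44 and 7.36 under lapatinib. It fell by 0.53 ± 0.11 (adjusted p = 7.38e-06), and the groups were well apart. The genes on either side of it, FDFT1 (squalene synthase) and LSS (lanosterol synthase), differed by 0.09 ± 0.09 and 0.13 ± 0.12 and did not pass. EBP, the sterol isomerase, was near the floor of these values in Hs578T, with 0.61, 0.26 and 0.58 in co-treated libraries, against -1.02, -2.50 and -1.31 under lapatinib. The EBP groups did not overlap, and the difference of 2.10 ± 0.86 just failed (adjusted p = 0.0502) but passed in the reduced set (1.77 ± 0.59, adjusted p = 0.0193). The remaining sterol genes (CYP51A1, TM7SF2, HSD17B7 and SC5D) had differences between -0.17 and 0.53, none of which passed. In the reduced set CYP51A1 passed as lower, with means of 6.45 in co-treatment and 6.66 under lapatinib.

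STARD4, a sterol transport protein, had 4.19, 4.19 and 4.17 in co-treated libraries, against 4.33, 4.50 and 4.79 under lapatinib, without overlap (-0.36 ± 0.20, adjusted p = 0.185), and it passed as lower in the reduced set (-0.46 ± 0.13, adjusted p = 0.00624). Among the fatty acid genes, SCD (10:100347124-100364834), the desaturase that makes monounsaturated fatty acids, had 9.58, 9.41 and 9.46 in co-treated libraries, against 8.90, 9.00 and 9.03 under lapatinib. SCD rose by 0.51 ± 0.09 (adjusted p = 7.62e-08) with no overlap. ACLY, which supplies cytosolic acetyl-CoA, fell by 0.28 ± 0.10 (adjusted p = 0.0129), while FASN (fatty acid synthase) and ACACA (acetyl-CoA carboxylase) had differences of -0.07 ± 0.10 and 0.21 ± 0.12 that did not pass.

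**Figure D1:**
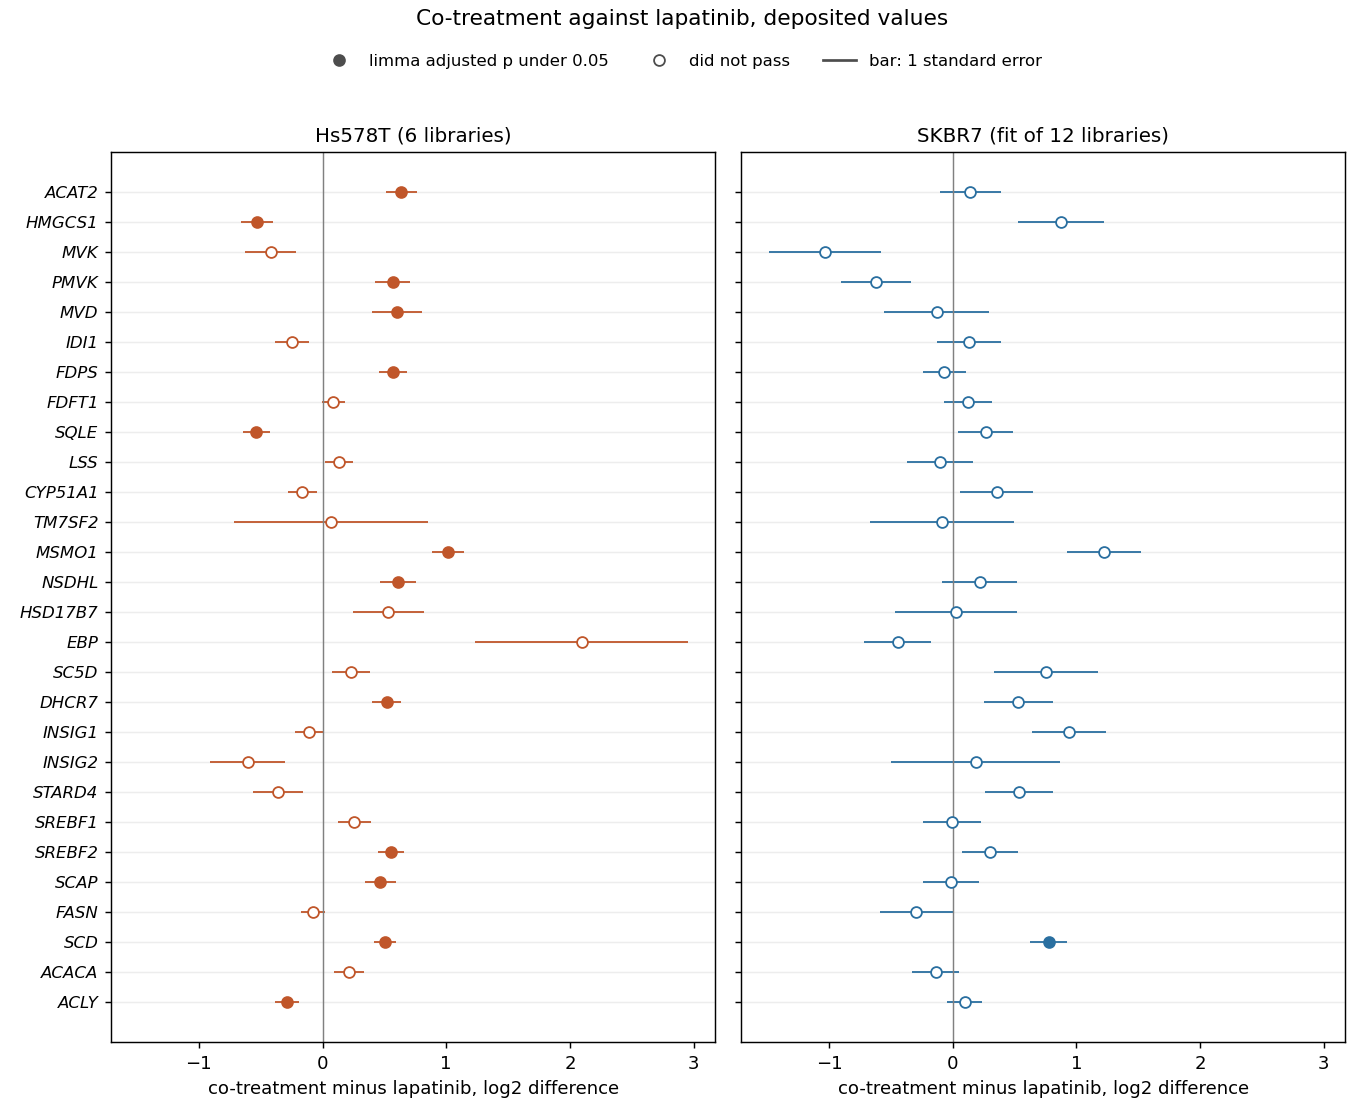
Log2 difference of co-treatment minus lapatinib for each of the 28 genes (points; bars are 1 standard error), Hs578T in the left panel and SKBR7 in the right, with filled points where limma's adjusted p was under 0.05. In Hs578T 10 genes lie to the right and 3 to the left as filled points, MSMO1 farthest right of them, whereas in SKBR7 the only filled point is SCD.

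The libraries of the co-treated and lapatinib groups did not overlap for 14 members that were higher and 5 that were lower in co-treated Hs578T cells, and 29.7% and 18.2% of all genes with values in these libraries met the same conditions. In the reduced set, 11 members rose and 8 fell, where 31.8% of genes were called higher and 27.7% lower, so that both counts lay near these shares. With each library centred on its median, 9 rose and 7 fell, where 2791 of 21814 genes were called higher and 3116 lower. The counts in the deposited values rest on a spread taken from these 6 libraries. With the spread of all 12 Hs578T libraries, which include the 4 in doubt, 0 of the 28 and 0 of 22846 genes passed. At an unadjusted p under 0.05 (limma) there were then 0 members and 948 genes.

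Against PHA-767491 and DMSO in Hs578T, 0 of the 28 members and 0% of all genes passed in the deposited values (limma). At an unadjusted p under 0.05 there were 1 member and 1233 of 23003 genes against PHA-767491. Against DMSO there were 7 members and 4632 of 21228 genes. The spread of the control groups was wide. MSMO1 had 5.77, 6.51 and 6.91 under PHA-767491 and 2.33, 6.06 and 6.09 under DMSO, against the 6.54 to 6.60 of co-treatment. In the reduced set, co-treatment (3 libraries) against the 1 PHA-767491 library gave 1 member higher and 9 lower, where 15% and 16.6% of genes were called. Against the 1 DMSO library it gave 9 higher and 9 lower, where 24.1% and 22.1% were called.

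The genes lower in both of these reduced comparisons came from the mevalonate steps (HMGCS1, MVK and IDI1), the sterol steps (SQLE and CYP51A1), the INSIG genes and STARD4. HMGCS1 fell by 1.17 ± 0.12 against PHA-767491 and by 1.16 ± 0.12 against DMSO (adjusted p = 3.86e-05 and 1.45e-05). SQLE fell by 1.02 ± 0.11 and 0.78 ± 0.11, IDI1 by 1.08 ± 0.14 and 0.91 ± 0.14, CYP51A1 (lanosterol demethylase) by 0.60 ± 0.11 and 0.45 ± 0.11, in the same order. INSIG1 fell by 0.64 ± 0.12 and 0.55 ± 0.12, and INSIG2 by 0.98 ± 0.22 and 0.87 ± 0.22. FASN was also lower in the comparison with PHA-767491, and ACLY in that with DMSO. In the other direction, SREBF2 (0.41 ± 0.11), SCAP (0.44 ± 0.12), MSMO1 (0.44 ± 0.12) and FDPS (0.59 ± 0.12) rose against DMSO, as did ACAT2, PMVK, MVD, NSDHL and DHCR7, and FDPS also rose against PHA-767491 (0.35 ± 0.12). These comparisons share the co-treated libraries, and each has a single library on the other side.

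**Figure D2:**
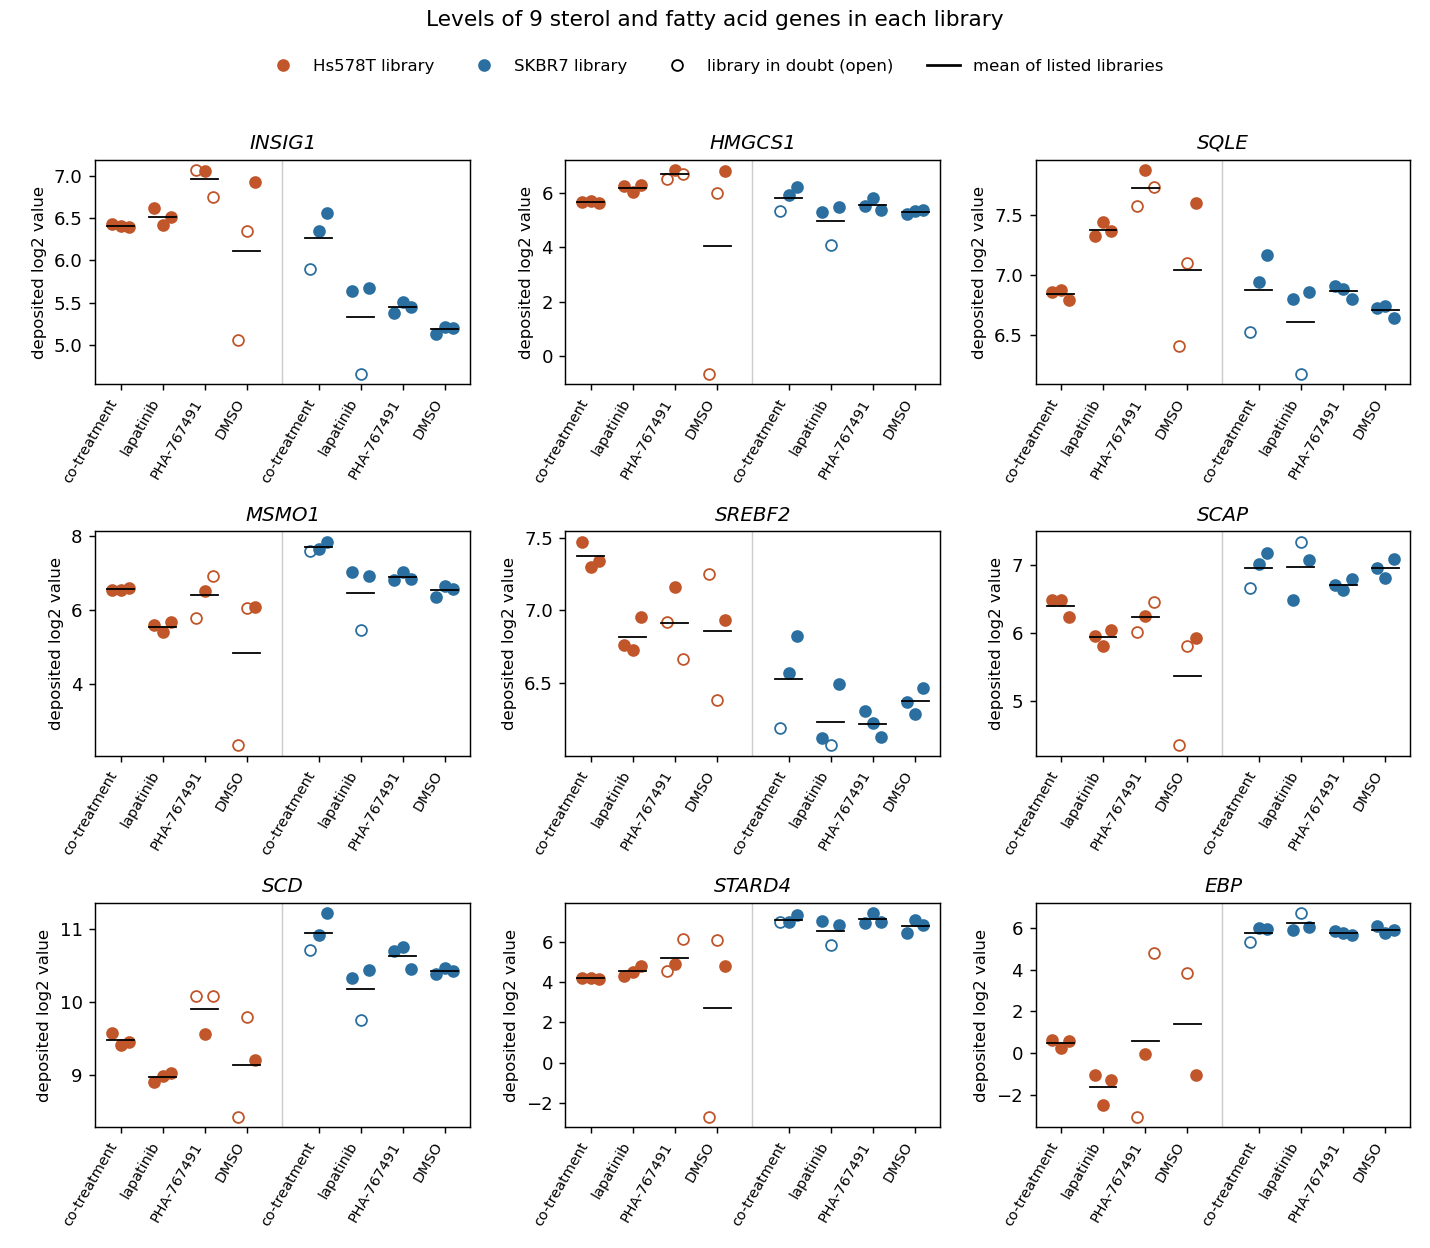
Deposited log2 value (vertical axis) of 9 genes in every library, by group, with Hs578T at the left and SKBR7 at the right of each panel; lines are means of the libraries that list the gene and open points are the 6 libraries in doubt. INSIG1, MSMO1, SCD, HMGCS1, SREBF2 and SQLE have their highest SKBR7 mean in co-treatment, SQLE only just (6.88, against 6.86 under PHA-767491). HMGCS1 and SQLE are lower in co-treatment than under either monotherapy in Hs578T, and open points set the widest spreads, as for EBP at 4.78 and 3.85 in Hs578T.

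In SKBR7 cells, INSIG1, MSMO1 and SCD were the members whose co-treated libraries lay above those of lapatinib and of DMSO. Against DMSO, MVK and PMVK lay wholly below, and 3.19% of all genes lay wholly above and 33.1% wholly below. Against lapatinib, in the deposited values of all 12 libraries, 1 of the 28 passed as higher and 0 as lower, where 0.164% and 0.57% of genes were called. That gene was SCD, with 10.7, 10.9 and 11.2 in co-treated libraries, against 10.3, 9.76 and 10.4 under lapatinib (0.78 ± 0.15, adjusted p = 0.0143). SCD did not pass without co-treatment II or III (adjusted p = 0.0612 and 0.0562).

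INSIG1 had 5.90, 6.35 and 6.56 in co-treated SKBR7 libraries, against 5.64, 4.66 and 5.68 under lapatinib, 5.38, 5.51 and 5.46 under PHA-767491 and 5.13, 5.22 and 5.21 under DMSO. MSMO1 had 7.60, 7.64 and 7.85 in co-treated libraries, against 7.03, 5.45 and 6.93 under lapatinib, 6.82, 7.03 and 6.84 under PHA-767491 and 6.36, 6.66 and 6.57 under DMSO. For both genes every co-treated library lay above all 9 others of the line. The deposited differences did not pass against lapatinib (INSIG1 0.94 ± 0.30 and MSMO1 1.23 ± 0.30, adjusted p = 0.177 and 0.0655) or against DMSO (1.08 ± 0.30 and 1.17 ± 0.30, adjusted p = 0.0728 and 0.0548). MSMO1 passed against lapatinib without lapatinib II (0.72, adjusted p = 0.0201), without lapatinib I and without DMSO I. Co-treated libraries did not overlap lapatinib libraries for 3 higher members (these and SCD) and 1 lower (MVK), and 3.33% and 6.63% of all genes met these conditions.

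Without the libraries in doubt, 2 co-treated and 2 lapatinib libraries remained in SKBR7 and more members passed. Against lapatinib 6 rose and 1 fell, where 17.8% of genes were called higher and 19.8% lower. The 6 were INSIG1 (0.79 ± 0.10, adjusted p = 5.82e-05), MSMO1 (0.77 ± 0.11), SCD (0.69 ± 0.09), HMGCS1 (0.68 ± 0.11), NSDHL (0.43 ± 0.11) and SREBF2 (0.38 ± 0.10), and the 1 that fell was MVK (-0.52 ± 0.17, adjusted p = 0.0259). The members' median was 0.22, against 0.04 for all genes. Against PHA-767491 9 rose and 1 fell, where 18.6% and 19.9% were called. In the deposited values 0 had passed there, where 0.018% and 0.413% of genes were called. At an unadjusted p under 0.05 (limma) there were 3 members and 2316 of 22253 genes. The members that rose in the reduced set were INSIG1 (1.00 ± 0.10), MSMO1 (0.85 ± 0.10), DHCR7 (0.58 ± 0.12), HMGCS1, SREBF2, SCD, SCAP, NSDHL and FDFT1. The 1 that fell was ACACA (-0.26 ± 0.09).

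Against DMSO in SKBR7, 11 of the 28 rose and 0 fell in the reduced set, where 21.1% of genes were called higher and 21.4% lower. In the deposited values 0 had passed, where 0.0666% of genes were called higher and 1.44% lower. At an unadjusted p under 0.05 (limma) there were 4 members and 3830 of 22521 genes. In the reduced set, INSIG1 had the largest difference of the 28, 1.37 ± 0.10 or 2.58-fold (adjusted p = 2.42e-07). MSMO1 followed with 1.28 ± 0.10 or 2.43-fold (adjusted p = 6.26e-07). HMGCS1 rose by 0.85 ± 0.10, NSDHL by 0.70 ± 0.10, SCD by 0.69 ± 0.08, SQLE by 0.41 ± 0.08, SREBF2 by 0.39 ± 0.09, CYP51A1 by 0.37 ± 0.09, DHCR7 by 0.36 ± 0.12, FDFT1 by 0.25 ± 0.09 and ACAT2 by 0.23 ± 0.09. By step, 2 of the 7 mevalonate genes, 6 of the 11 squalene and sterol genes, 2 of the 5 regulators and 1 of the 4 fatty acid genes rose. SREBF1 (0.01 ± 0.14) and FASN (-0.18 ± 0.19) did not pass.

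**Figure D3:**
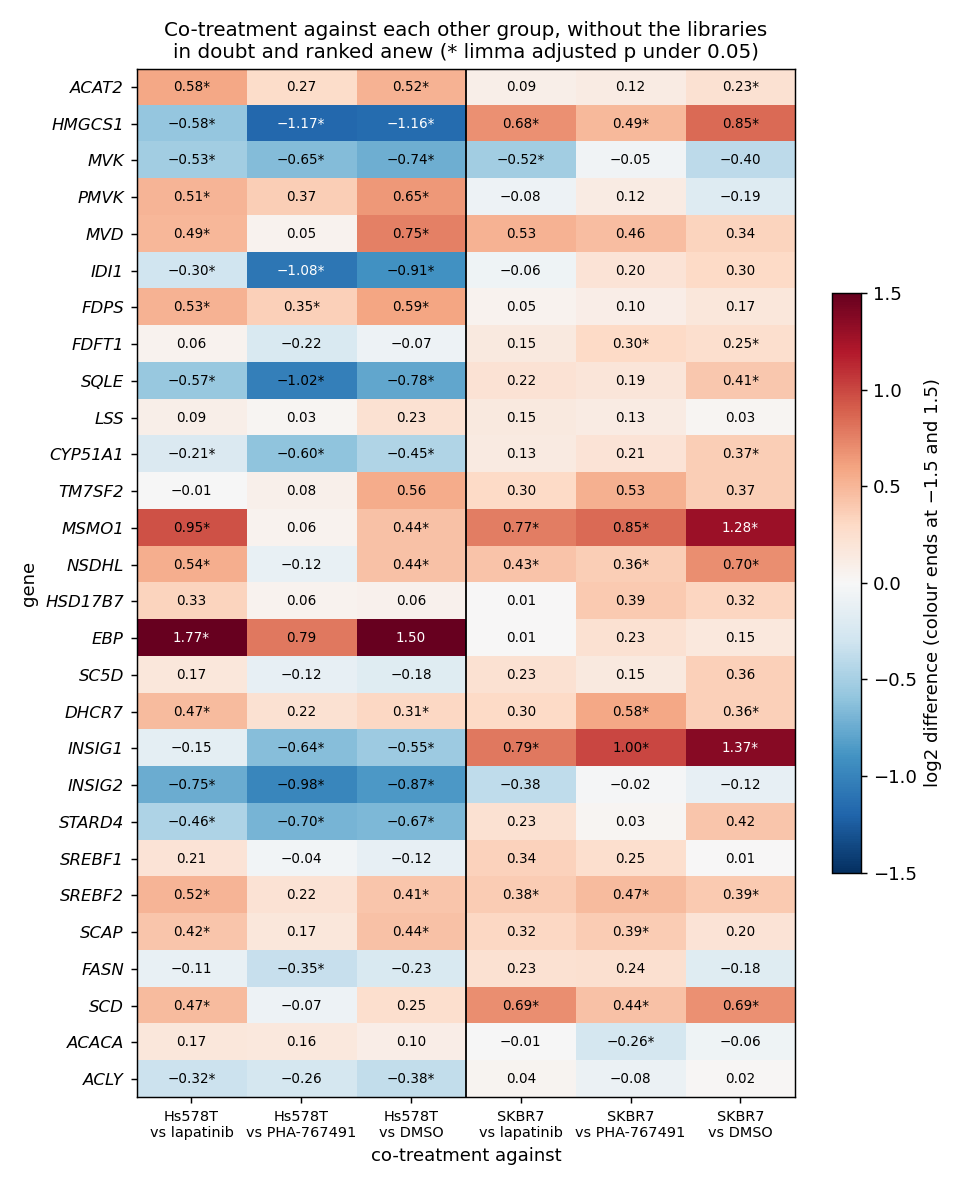
Log2 difference of co-treatment against lapatinib, PHA-767491 and DMSO (columns) for each of the 28 genes (down the page) in both lines, in the reduced set, with an asterisk where limma's adjusted p was under 0.05 and colour from blue (lower) to red (higher). HMGCS1, SQLE and INSIG1 are blue or pale in the Hs578T columns and red or pale red in the SKBR7 columns, while MSMO1, NSDHL, SREBF2 and SCD pass as higher against lapatinib in both lines.

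The difference between the lines was tested directly as the Hs578T change minus the SKBR7 change in co-treatment against lapatinib. In the deposited values 0 of the 28 passed, where 0.0157% of genes were called higher and 0.0261% lower (limma). At an unadjusted p under 0.05 there were 6 members and 837 of 19168 genes. The reduced set compared 3 co-treated and 3 lapatinib libraries of Hs578T with 2 and 2 of SKBR7. There, 3 members were higher and 4 lower in this difference, where 6.55% and 9.07% of genes were called. The 4 lower ones were HMGCS1 (-1.26 ± 0.14, adjusted p = 7.24e-05), INSIG1 (-0.94 ± 0.14, adjusted p = 6.15e-04), SQLE (-0.79 ± 0.13, adjusted p = 8.88e-04) and STARD4 (-0.69 ± 0.19, adjusted p = 0.025). HMGCS1 fell by 0.58 in Hs578T and rose by 0.68 in SKBR7 in these same libraries. The 3 higher ones were EBP (1.76 ± 0.44), PMVK (0.58 ± 0.18) and FDPS (0.47 ± 0.12). For SREBF2, SCAP, MSMO1 and NSDHL the line difference was between 0.11 and 0.19 with standard errors of 0.13 to 0.16, and none passed.

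No member passed for either drug alone in the deposited values. In Hs578T, lapatinib against DMSO and PHA-767491 against DMSO each called 0 members and 0% of genes (limma). For lapatinib, 0 members and 2047 of 21166 genes had an unadjusted p under 0.05. For PHA-767491 these were 3 members and 1677 of 21314 genes. In SKBR7 both comparisons again called 0 members and 0% of genes, with 0 members at an unadjusted p under 0.05 in either. Of all genes, 525 of 22875 for lapatinib and 484 of 23206 for PHA-767491 were under 0.05 there. In the reduced set of SKBR7, lapatinib against DMSO called 1 member, INSIG1 (0.58 ± 0.10, adjusted p = 0.0328), where 0.082% of genes were called higher and 0% lower. PHA-767491 against DMSO called 3, MSMO1 (0.43 ± 0.09), INSIG1 (0.37 ± 0.09) and HMGCS1 (0.37 ± 0.09), where 1.56% of genes were called higher and 1.78% lower. For Hs578T, with 1 library of PHA-767491 and 1 of DMSO in the reduced set, 0 members passed in either comparison, and 0% of genes were called for lapatinib and 0.0492% higher and 0.205% lower for PHA-767491.

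The lines themselves differed in the level of many members. Under lapatinib, with Hs578T set against SKBR7, 4 members were higher and 12 lower in the deposited values, where 13.1% of genes were called higher and 8.88% lower. EBP had -1.02, -2.50 and -1.31 in Hs578T, against 5.90, 6.72 and 6.05 in SKBR7, a difference of -7.83 ± 0.60 (adjusted p = 3.76e-11). STARD4 had 4.33, 4.50 and 4.79 in Hs578T, against 7.03, 5.82 and 6.83 in SKBR7 (-2.03 ± 0.32, adjusted p = 1.71e-05). Neither gene overlapped between the lines. Hs578T DMSO II and PHA-767491 III had 3.85 and 4.78 for EBP and 6.09 and 6.15 for STARD4, above every other Hs578T library. The part of SKBR7 transcripts in those libraries was not tested.

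The higher 4 in Hs578T were FDFT1 (1.46 ± 0.18, adjusted p = 4.58e-07), HMGCS1 (1.24 ± 0.34), INSIG1 (1.19 ± 0.29) and SQLE (0.77 ± 0.23). SREBF1 had 5.79, 5.67 and 5.85 in Hs578T, against 6.71, 7.41 and 7.49 in SKBR7 (-1.43 ± 0.27, adjusted p = 1.53e-04). SREBF2 had 6.76, 6.72 and 6.96 in Hs578T, against 6.12, 6.07 and 6.49 in SKBR7, without overlap but without passing (0.59 ± 0.23, adjusted p = 0.0719). PMVK, MVD, IDI1, FDPS, TM7SF2, MSMO1, SCAP, FASN and SCD were also lower in Hs578T, with differences of -2.95 to -0.77. Of these, MVD, IDI1, MSMO1 and FASN overlapped between the lines. SKBR7 lapatinib II, which is in doubt, was the highest SKBR7 library there for MVD (6.76) and FASN (9.56). It was the lowest for IDI1 (6.03) and MSMO1 (5.45). Without the library in doubt 7 were higher and 16 lower, where 32.9% and 34.4% of genes were called, and SREBF2 was among those higher (0.51 ± 0.09, adjusted p = 1.52e-04).

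**Figure D4:**
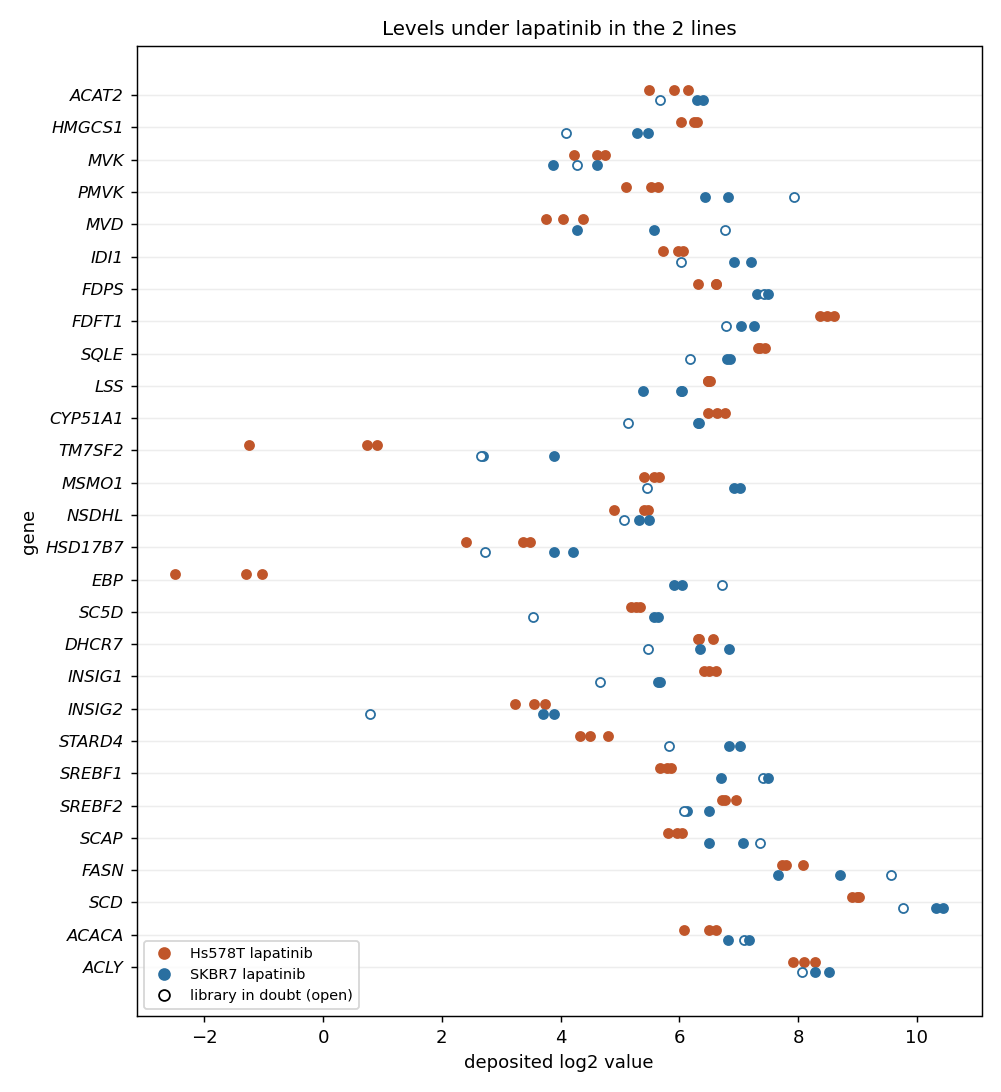
Deposited log2 value (horizontal axis) of each of the 28 genes in the 3 lapatinib libraries of Hs578T (upper points of each pair) and of SKBR7 (lower points), with the SKBR7 library in doubt as an open point. EBP, TM7SF2 and STARD4 lie far lower in Hs578T, FDFT1 and SQLE lie higher there, and ACAT2, MVK, NSDHL and DHCR7 are among the genes that overlap between the lines.

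Neighbouring parts of lipid metabolism were counted from lists of genes that are no members. In Hs578T, co-treatment against lapatinib in the deposited values called 2 of 7 SREBP processing genes higher and 1 lower, 4 of 8 genes of cholesterol uptake, trafficking and esterification higher and 1 lower, and 0 of 6 genes of sterol sensing by LXR and efflux higher and 1 lower. It called 5 of 17 genes of fatty acid supply, elongation and desaturation higher and 4 lower, and 1 of 9 genes of the isoprenoid branch higher and 2 lower. Of all genes tested, 18.3% were called higher and 11% lower in this comparison. The medians of these lists were 0.17, 0.31, 0.07, 0.09 and -0.12, against 0.18 for all genes. STARD3 (0.83 ± 0.17), a sterol carrier of late endosomes, and SCARB1 (0.65 ± 0.13), a lipoprotein receptor, rose. RXRA, a partner of LXR, fell by 0.57 ± 0.17, and DHDDS, which makes dolichol precursors, fell by 0.68 ± 0.13. ACACB, the mitochondrial acetyl-CoA carboxylase, fell by 0.78 ± 0.31 and DGAT1, which makes triglyceride, rose by 0.58 ± 0.15.

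In SKBR7, 0 genes of these 5 lists passed in the deposited values of co-treatment against lapatinib. Of all genes, 0.164% were called higher there and 0.57% lower. The reduced set, where 17.8% of all genes were called higher and 19.8% lower, had 2 of 7 processing genes higher, 3 of 8 uptake and trafficking genes higher (NPC2, TMEM97 and LIPA, by 0.32 to 0.47), 1 of 5 LXR and efflux genes higher, 2 of 9 isoprenoid genes higher, and 2 of 17 fatty acid genes higher and 7 lower. GPAM, the first enzyme of glycerolipid synthesis, fell by 0.66 ± 0.12 in SKBR7 and by 0.53 ± 0.08 in Hs578T in the reduced set. The change in co-treatment against lapatinib, Hs578T minus SKBR7, was higher for the desaturases FADS1 and FADS2 (0.54 ± 0.13 and 0.71 ± 0.17, adjusted p = 0.0114 and 0.0134) and lower for the elongase ELOVL5 (-0.35 ± 0.11, adjusted p = 0.0478) in the reduced set.

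Some properties that members share with neighbours limit single values. In the deposited coordinates, 15 of the 28 overlap another listed gene, 14 of them one on the other strand, and the strand setting of the counting is not given in the sources used here. ACAT2 overlaps TCP1 and SOD2, MVK overlaps MMAB and SREBF1 overlaps RAI1, and 4 members have named pseudogenes, of which FDPS has 7, so their values are uncertain in that respect. Across genes, the difference of co-treatment against lapatinib had a Spearman correlation with mRNA length of -0.20 in Hs578T (21491 genes) and -0.10 in SKBR7 (21593 genes), and across the 28 members it was -0.49 and 0.27. Genes are not independent replicates, and the part of length in the members' values was not tested.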

How the data were processed

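RNA-Seq of 24 libraries (TruSeq stranded mRNA, paired reads) was deposited as 1 table of log2 values per gene and library. By the study's methods, the authors counted reads with featureCounts 1.4.6 on GRCh38, scaled them with edgeR by TMM and quantile normalised the log2 values that were deposited. The labels name HiSat2 and the methods STAR as the aligner, and the values could come from either. A second table of group averages and comparisons by the authors was not used. Of 36517 lines, 36 repeated identifiers were left out.

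Tests were two-sided, by limma (version 3.58.1, R version 4.3.3) with eBayes, a trend of variance with level and Benjamini-Hochberg adjustment over all genes tested, for genes listed in at least 3 libraries of the fit. No missing value was filled in. Fits within a line used its 4 groups, or, for co-treatment against lapatinib in Hs578T, those 6 libraries. The level under lapatinib between the lines and the line difference were fitted on the co-treated and lapatinib libraries of both lines together. The reduced set was quantile normalised again. The fit was tested on simulated data. The members and lists, and which libraries were in doubt, were chosen with earlier results of these data known. By the naming rule, values in every library were to be given for 5 regulators and, per line, up to 6 passing enzymes or STARD4 without overlap and with the largest difference in co-treatment against lapatinib. From each neighbouring list up to 3 passing genes were to be named, and 1 of these is not reported here. Alternatives were other filters, centring, ranking anew, no variance trend, a replicate block, other sets of libraries and leaving out each library. Gene coordinates are those of the deposited table, and mRNA lengths come from GENCODE 44. Promoter windows come from RefSeq on GRCh38.p14. Python 3.11.15 with matplotlib 3.10.9, numpy 2.4.6 and pandas 2.3.3 drew the figures.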

Additional observations from a re-analysis of the deposited data

Results flagged for a closer look

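Between the lines, 7 members differed in the change of co-treatment against lapatinib when the libraries in doubt were left out (limma, adjusted p under 0.05), although none of the 28 did so in the deposited values. The Hs578T change was above the SKBR7 change for EBP (1.76 ± 0.44, SE), PMVK (0.58 ± 0.18) and FDPS (0.47 ± 0.12). It was below it for HMGCS1 (-1.26 ± 0.14), INSIG1 (-0.94 ± 0.14), SQLE (-0.79 ± 0.13) and STARD4 (-0.69 ± 0.19). EBP is near the floor of the values in Hs578T.

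For 4 members, every library of a group moved one way in Hs578T and the opposite way in SKBR7 in the deposited values, and these differences were not tested. INSIG1 in co-treatment against PHA-767491 differed by -0.55 in Hs578T and 0.82 in SKBR7, where 11.9% of all genes lay wholly lower in Hs578T and 3.09% wholly higher in SKBR7. PMVK in co-treatment against DMSO differed by 1.60 in Hs578T and -0.37 in SKBR7, where 40.7% of all genes lay wholly higher in Hs578T and 33.1% wholly lower in SKBR7, and the median of all genes was 0.90 and -0.46. In PHA-767491 against DMSO, SCAP differed by 0.88 in Hs578T and -0.24 in SKBR7, and FASN by 0.29 in Hs578T and -0.47 in SKBR7, where 6.08% of all genes lay wholly higher in Hs578T and 23.9% wholly lower in SKBR7, and the median of all genes was 0.69 and -0.18. PMVK, SCAP and FASN thus moved in the direction of the median of all genes in each line. In Hs578T all of these use libraries in doubt on the PHA-767491 or DMSO side.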

How the results depend on the processing

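Counts of members passing depended on the libraries and on the scale, while no member named with values per library passed in opposite directions under any alternative in co-treatment against lapatinib. For Hs578T co-treatment against lapatinib (13 of 28 pass), 0 passed with all 12 libraries of the line and 2 without a variance trend, and leaving out each library gave 11 to 16. Of all genes, 0 of 22846 passed with all 12 libraries, and 685 higher and 804 lower of 21814 without a variance trend. Ranked anew without the libraries in doubt, 10 passed for Hs578T co-treatment against PHA-767491 and 18 against DMSO, and with every library but Hs578T DMSO I ranked anew 10 and 10, where the deposited values gave 0. Leaving out each library gave 0 to 1 there for PHA-767491, 0 to 9 for DMSO, 0 to 4 for lapatinib against DMSO and 0 to 7 for PHA-767491 against DMSO, the highest 3 of these without Hs578T DMSO III, which is not in doubt. For fits that left out 1 library, counts over all genes are not given here or below. Such ranges therefore cannot be set against a share of all genes. Ranked anew without Hs578T DMSO I only, 1753 higher and 1757 lower of 12200 genes passed against PHA-767491, and 1694 and 1731 against DMSO.

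For SKBR7 co-treatment against lapatinib (1 passes), 2 passed over genes listed in every library, 3 after centring, 6 ranked anew, 7 without the libraries in doubt, 0 without a variance trend and 2 in the 6 libraries compared, with 0 to 2 on leaving out each library. Over all genes, 36 higher and 125 lower of 21932 passed in the deposited values, and 348 and 427 after centring. Of the genes listed in every library, 105 and 301 of 14170 passed, and in the 6 libraries compared 31 and 60 of 20594. Ranked anew, 1494 and 1628 of 12200 genes passed, and 2170 and 2418 without the libraries in doubt. Against PHA-767491 (0), 1 passed after centring, 3 ranked anew, 10 without the libraries in doubt and 2 in the 6 libraries compared, with 0 to 2 on leaving out each library. Over all genes, 4 higher and 92 lower of 22253 passed in the deposited values, and 43 and 92 after centring. Ranked anew, 758 and 1241 of 12200 genes passed, and 2272 and 2422 without the libraries in doubt. Against DMSO (0), 2 passed over genes listed in every library, 4 after centring, 7 ranked anew, 11 without the libraries in doubt and 3 in the 6 libraries compared, with 0 to 3 on leaving out each library. Over all genes, 15 higher and 324 lower of 22521 passed in the deposited values, and 270 and 365 after centring. Ranked anew, 1195 and 1550 of 12200 genes passed, and 2570 and 2616 without the libraries in doubt. Most of these calls were higher for members and lower for genes. Without the libraries in doubt, 1 passed for SKBR7 lapatinib against DMSO and 3 for PHA-767491 against DMSO (0 in the deposited values), and PHA-767491 against DMSO gave 2 lower in the 6 libraries compared. In those 6 libraries, 25 of 22243 genes were called higher and 412 lower. For Hs578T against SKBR7 under lapatinib (16), 10 passed without a variance trend and 10 to 20 on leaving out each library, and for the line difference (0), 5 passed ranked anew and 7 without the libraries in doubt. Without a variance trend, 2020 of 21122 genes were called higher and 1400 lower between the lines under lapatinib. For the line difference, 199 and 469 of 12200 genes passed ranked anew, and 799 and 1106 without the libraries in doubt.

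Replicates of the same number did not pair. The correlations of their deviations from the group means ran from -0.41 to 0.59 and were not all above 0.1 in any comparison. With a replicate block, 11 members passed in Hs578T co-treatment against lapatinib, 2 in SKBR7 co-treatment against lapatinib and 2 against DMSO. Over all genes these fits called 2886 higher and 1839 lower of 16561 in Hs578T, and 90 and 284 of 14170 in SKBR7 against lapatinib. Against DMSO in SKBR7 they called 33 and 658. No block could be fitted for Hs578T against SKBR7 under lapatinib, because the numbers lie within lines. The causes of these shifts were not tested. Precision is limited by 3 libraries per group and unknown read depth.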
